A study of Mus musculus with 3 samples.

Results

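The unfolded protein response (UPR) and the integrated stress response (ISR) were followed through 10 genes in mouse bone marrow (BM) after injection of leukocyte cell-derived chemotaxin 2 (LECT2), a cytokine made mainly by the liver. The members were found by their symbols among 17250 gene symbols in the deposited tables, and a symbol listed more than once was represented by its most abundant row. They were the sensors Ern1 and Eif2ak3, the transcription factors Xbp1, Atf4 and Ddit3, the feedback genes Ppp1r15a and Trib3, the chaperones Hspa5 and Hsp90b1, and the enzyme Asns. All 10 were found.

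The study asked how LECT2 acts on haematopoietic stem cells and their surroundings in the BM. C57BL/6 mice 6 to 8 weeks old, carrying no listed transgene or deletion, received recombinant LECT2 produced in a hamster ovary cell line, at 300 μg/kg once a day under the skin. RNA was sequenced from BM cells flushed from the femur, tibia, pelvis and humerus after 0, 3 or 5 days, with 1 library for each time point. For the 0-day library the labels list no injection, so an effect of the injection itself and an effect of LECT2 cannot be told apart, and the number of mice behind each library is not given in the sources used here.

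Proteins that are secreted or placed in membranes fold in the endoplasmic reticulum (ER). When unfolded protein builds up there, the sensors IRE1 (encoded by Ern1), PERK (Eif2ak3) and ATF6 start the UPR, which raises folding capacity and lowers protein synthesis. PERK shares its substrate, the translation factor eIF2α, with kinases that sense amino acid shortage, double-stranded RNA and haem shortage, and the common programme downstream of eIF2α phosphorylation, centred on ATF4, is the ISR. In BM these pathways are best known in plasma cells, which secrete antibody, and in stem cells and granulocyte precursors. Much of the control acts on protein and on translation (PERK and IRE1 by phosphorylation, ATF4 by translation of its mRNA), which mRNA levels do not measure.

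The promoter stretches printed here show which members carry the letters of classical UPR and ISR elements near the start site. Promoters were taken from RefSeq on GRCm38.p6, from 250 bases before the start site, and matched all 10 members; the expression tables rest on another build (mm8), so no coordinate was carried over. On both strands, the ER stress response element (CCAAT, 9 bases of any kind, CCACG), bound by ATF6 with NF-Y, was found in 0.119% of 32851 mouse promoters. It was present at Hspa5 and, once on each strand, at Hsp90b1. The core of the element bound by ATF4 with C/EBP partners, TGATGNAA, was found in 3.97% of promoters and among members at Asns and Trib3. The cyclic AMP response element, TGACGTCA, was found in 1.79% of promoters and among members at Ppp1r15a. The XBP1-type core TGACGTGG was found in 0.676% of promoters and in 0 of the 10 members. No match printed here overlapped another searched motif. Capitals mark the matches, each sequence reads along the strand of its gene, and a match is only a match of letters.
Hspa5 (chr2:34771890-34772089, plus strand): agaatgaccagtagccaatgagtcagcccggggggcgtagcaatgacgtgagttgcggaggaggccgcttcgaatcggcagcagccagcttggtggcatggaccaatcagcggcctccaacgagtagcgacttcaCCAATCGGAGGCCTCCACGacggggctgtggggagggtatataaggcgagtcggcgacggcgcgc
Hsp90b1 (chr10:86705445-86705694, minus strand): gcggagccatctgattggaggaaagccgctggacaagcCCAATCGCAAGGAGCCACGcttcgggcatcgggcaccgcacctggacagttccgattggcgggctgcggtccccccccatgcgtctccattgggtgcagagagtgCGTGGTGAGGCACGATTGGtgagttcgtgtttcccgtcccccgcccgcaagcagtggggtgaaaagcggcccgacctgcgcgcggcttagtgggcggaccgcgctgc
Asns (chr6:7693210-7693289, minus strand): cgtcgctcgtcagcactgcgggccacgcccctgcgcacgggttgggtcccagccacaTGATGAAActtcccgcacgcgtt
Ppp1r15a (chr7:45526269-45526348, minus strand): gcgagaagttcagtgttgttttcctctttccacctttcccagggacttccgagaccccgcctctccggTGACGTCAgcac
Trib3 (chr2:152344028-152344057, minus strand, from base 4 to base 33 after the start site): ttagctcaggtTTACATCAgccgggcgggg

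The members differed in direction after LECT2. Ern1 mRNA was at 774% of its 0-day level after 5 days, whereas Ppp1r15a and Ddit3 were at 26.8% and 27.8% of theirs. Atf4 itself was at 57.3%. In RPKM the abundant chaperones Hspa5 and Hsp90b1 at 5 days were within counting error of 0 days, although both lay lower once the libraries were scaled to the bulk of genes.

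Each library held between 15146983 and 15523952 counted reads. The values are reads scaled to row length and library total (RPKM), and log2 ratios were taken after adding 0.1 RPKM to both sides. The ratios of the later libraries to the 0-day library are called the 3-day and 5-day ratio, and that of the 5-day to the 3-day library the late ratio. Intervals in brackets are exact 95% intervals of the ratio of 2 counts. For the ratio of a pair of members they are exact conditional 95% intervals of the odds ratio of both members' counts in 2 libraries. They cover counting error only, since the reads carry no molecular identifiers, and with 1 library for each time point no test of a time point and no spread between animals could be had. A gene was counted as higher or lower where its log2 ratio passed 2-fold in a comparison in which at least 1 of the libraries reached 1 RPKM. The 3 comparisons share libraries, so their values stand side by side only. All rest on BM as a whole, in which fewer cells of a type and less RNA per cell cannot be told apart.

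At 3 days against 0 days, 1 of the 9 members tested was at least 2-fold higher (Ern1) and 0 were at least 2-fold lower, against 4.08% and 2.41% of 11325 genes. At 5 days against 0 days, 2 of 10 were higher (Ern1 and Xbp1) and 3 lower (Ddit3, Ppp1r15a and Trib3), against 15.5% and 5.91% of 11497 genes. With the scaling described next (TMM) 2 were higher and 4 lower, Atf4 being the added one, against 7.13% and 10.2% of genes. At 5 days against 3 days, 0 of 9 were higher and 1 was lower (Ppp1r15a), against 1.95% and 3.45% of 11375 genes. Xbp1 passed the filter only through its 5-day level and Trib3 only through its 0-day level, so their place among the counted genes is tied to the direction of their ratios. Over the 10 members the median 3-day, 5-day and late ratios were -0.28, -0.15 and 0.05, the same with and without Xbp1 and Trib3, which averaged under 1 RPKM over the 3 libraries. Over the 11144 genes averaging 1 RPKM or more they were 0.10, 0.31 and 0.25.

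The all-gene medians above 0 stood beside a smaller share of reads on a few very abundant genes. The 10 most abundant genes held 12.5%, 10.4% and 5.38% of the reads at 0, 3 and 5 days. Scaling by trimmed mean of M values (TMM) brought the median of all genes to 0.02, 0.01 and 0.03 and moved the members' medians to -0.36, -0.46 and -0.17. The share of genes called higher among all genes past 2-fold went from 62.9% to 48.9% at 3 against 0 days, from 72.4% to 41.3% at 5 against 0 days and from 36.1% to 10.6% at 5 against 3 days with that scaling. Long genes also had higher ratios than short ones. The median 5-day ratio was 0.85 in genes of the longest length decile and -0.43 in those of the shortest. With this trend removed, the members' medians were -0.33, -0.40 and -0.21. Members run from 879 bases (Ddit3) to 4512 bases (Eif2ak3). Length-corrected values are given for each member and for several genes of the pathway lists.

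**Figure D1:**
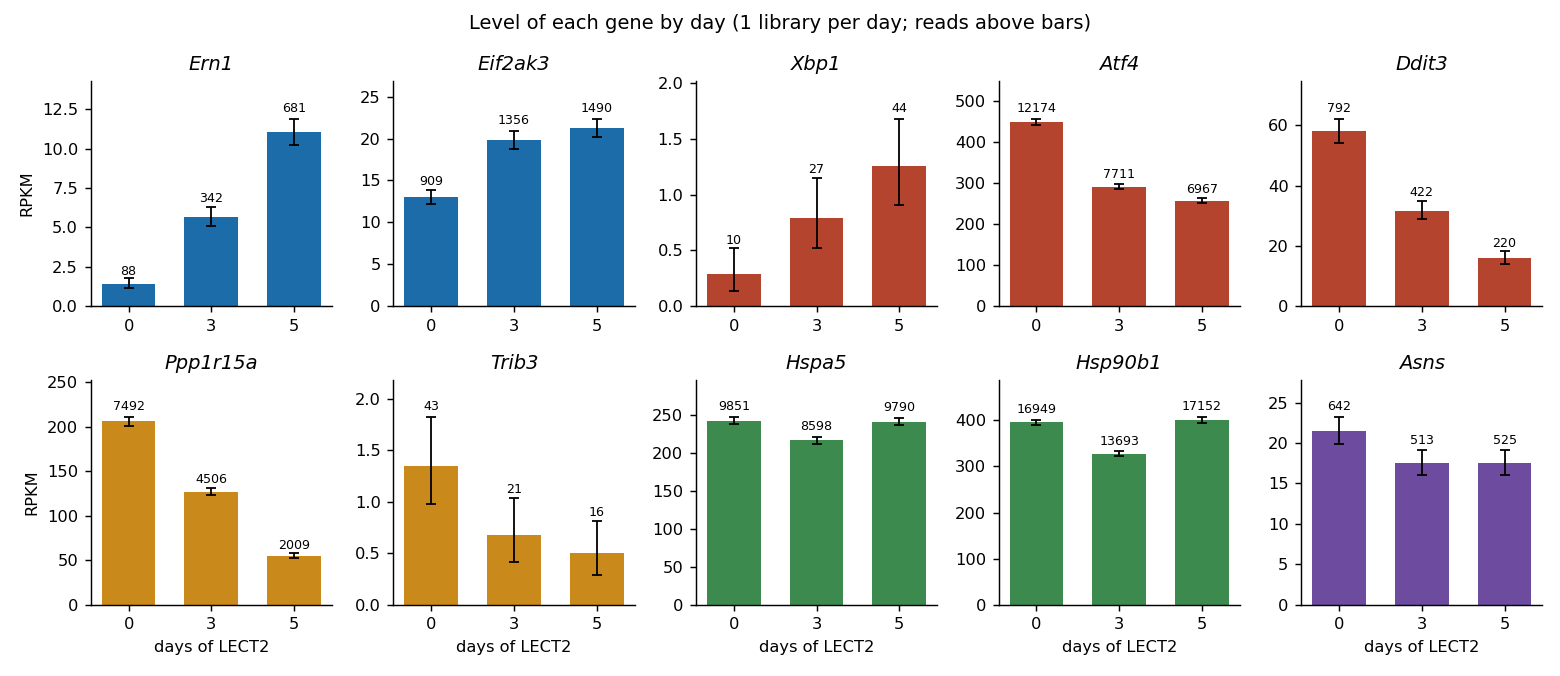
Level of each member in RPKM (linear vertical axes starting at 0, a separate scale for each gene) against days of LECT2, with 1 library in each bar, its read count above it and its exact 95% counting interval as the error bar. Ern1 reached 1.43, 5.68 and 11.0 RPKM, Atf4, Ddit3, Ppp1r15a and Trib3 were lower at each later time, and Hspa5 and Hsp90b1 were lowest at 3 days.

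**Figure D2:**
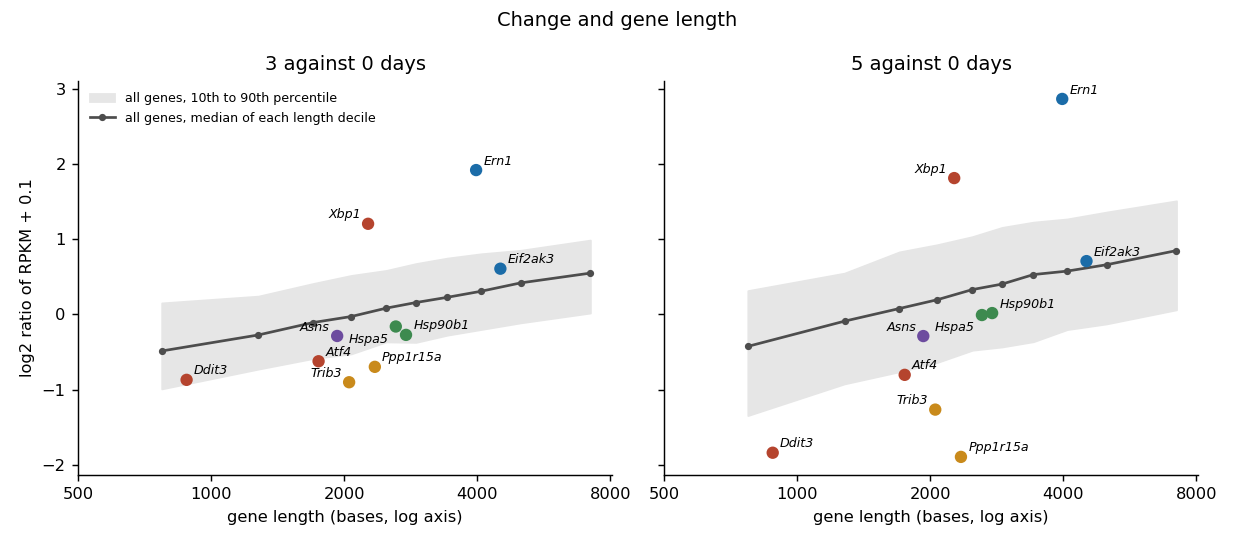
The 3-day ratio (left) and the 5-day ratio (right) on a log2 scale against gene length in bases (log axis), with the members as named points, the median of each length decile of all genes as a line and the span from the 10th to the 90th percentile shaded. At 5 days Ern1 and Xbp1 lay above the shaded span, Ddit3, Ppp1r15a, Trib3 and, by a small margin, Atf4 lay below it, and Eif2ak3 lay close to the line.

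Among the sensors, Ern1 encodes IRE1, the membrane kinase and RNase that splices Xbp1 mRNA. It had 88, 342 and 681 reads at 0, 3 and 5 days, or 1.43, 5.68 and 11.0 RPKM. The level thus was higher at each later time, and the counting intervals of the 3 libraries did not overlap. The 3-day ratio was 1.92 [1.65, 2.35] and the 5-day ratio 2.87 [2.63, 3.29], which placed Ern1 at percentiles 99.7 and 99.8 of the ratios of all genes averaging 1 RPKM or more. The late ratio was 0.95 [0.77, 1.15]. With TMM scaling the 3 ratios were 1.84, 2.57 and 0.73, and with the length trend removed they were 1.63, 2.29 and 0.65. Relative to other genes with reads, Ern1 moved from percentile 34.9 to 51.7 and 61.2, so a low transcript of the BM at 0 days was a middling one at 5 days.

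Eif2ak3 encodes PERK, the kinase of the ER membrane that phosphorylates eIF2α. Its levels were 13.0, 19.8 and 21.3 RPKM from 909, 1356 and 1490 reads. Both LECT2 libraries lay above the 0-day library and close to each other. The 3-day ratio of 0.61 [0.49, 0.74] and the 5-day ratio of 0.71 [0.59, 0.83] were below the 2-fold line. Between the LECT2 libraries the ratio was 0.10 [-0.01, 0.21], or -0.12 with TMM. At 4512 bases it is the longest member, and with the length trend removed its 3-day and 5-day ratios were 0.26 and 0.09.

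The other stress sensors of the pathway list, which has 5 further genes measured, gave median 3-day and 5-day ratios of 0.16 and 0.46 (for the latter, 0.15 with TMM and 0.12 with length removed). Atf6, the sensor released by cleavage in the Golgi, went from 8.54 to 14.2 and 19.9 RPKM, a 5-day ratio of 1.21 that was 0.91 with TMM and 0.39 with length removed. Eif2ak4 encodes GCN2, the kinase that senses uncharged tRNA, and its level went from 2.81 to 4.70 and 6.32 RPKM (5-day ratio 1.14, or 0.84 with TMM and 0.46 with length removed). Eif2ak1, the haem-regulated kinase abundant in erythroid cells, was the most abundant of the kinases at 53.1, 59.1 and 58.5 RPKM. Its 5-day ratio of 0.14 became -0.17 with TMM. Atf6b, a relative of Atf6, was at 35.8, 40.0 and 49.4 RPKM.

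Xbp1 encodes the transcription factor whose mRNA IRE1 cuts. The IRE1 step removes 26 bases and shifts the reading frame. In the GENCODE M21 transcripts (GRCm38) 2 stretches of that length follow one CNGCAG and end in another. The one printed, in the coding part of exon 4, is the one whose removal lengthens the reading frame, and the capitals mark its closing CNGCAG.
Xbp1 (chr11:5524282-5524307, bases 818 to 843 of transcript Xbp1-201): cactcagactatgtgcacctCTGCAG

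The longest reading frame of the transcript is 267 codons with these bases and 371 codons without them. The deposited table lists Xbp1 in 2 rows, of 2264 and 2238 bases, that differ in length by the same 26 bases. The longer row had 10, 27 and 44 reads, or 0.285, 0.787 and 1.25 RPKM, and the shorter had 0, 6 and 2 reads. The shorter row thus held 0 of 10 reads at 0 days, which allows a share of up to 30%, 6 of 33 at 3 days (18.2%, exact interval 6.98 to 35.5%) and 2 of 46 at 5 days (4.35%, 0.531 to 14.8%). The intervals overlap, and a difference in the share of reads on the shorter row was not detectable at this depth. For the longer row the 3-day ratio was 1.21 [0.38, 2.68], the 5-day ratio 1.81 [1.13, 3.29] and the late ratio 0.61 [-0.05, 1.42]. With a pseudocount of 1 RPKM its 5-day ratio was 0.81, short of 2-fold. With both rows summed the ratios were 1.47, 1.87 and 0.41, and with length removed those of the longer row were 1.18, 1.56 and 0.36.

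The level of the Xbp1 gene as a whole cannot be read from these rows. Symbols with more than 1 row had a median of 0.206 RPKM at 0 days in their best row against 3.62 RPKM for the 17018 symbols with a single row, and how reads shared by both Xbp1 rows were counted is not given in the sources used here. The Xbp1 values are therefore uncertain, and the filter of 1 RPKM was met in the 5-day library only.

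Atf4, the transcription factor at the centre of the ISR, was the most abundant member at 0 days with 448 RPKM, and had 291 RPKM at 3 days and 257 RPKM at 5 days, from 12174, 7711 and 6967 reads. Both LECT2 libraries lay well below the 0-day library, yet Atf4 was at percentile 98.6 of genes with reads in each. The 3-day ratio was -0.62 [-0.66, -0.58], the 5-day ratio -0.80 [-0.85, -0.76] and the late ratio -0.18 [-0.23, -0.13]. With TMM the 5-day ratio was -1.11, past the 2-fold line, and with length removed it was -0.90.

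Ddit3 encodes CHOP, the C/EBP-family factor induced by ATF4 and tied to cell death in prolonged stress. Its levels were 58.0, 31.7 and 16.1 RPKM from 792, 422 and 220 reads. Each later library was lower than the one before, with no overlap of counting intervals. Its 3-day, 5-day and late ratios were -0.87 [-1.05, -0.70], -1.84 [-2.07, -1.63] and -0.97 [-1.22, -0.74]. At 879 bases it is the shortest member, and with the length trend removed its ratios were -0.45, -1.53 and -1.11. The 5-day ratio passed the 2-fold line with and without correction, and the late ratio passed it with TMM (-1.19) and with length removed but not as it stood.

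**Figure D3:**
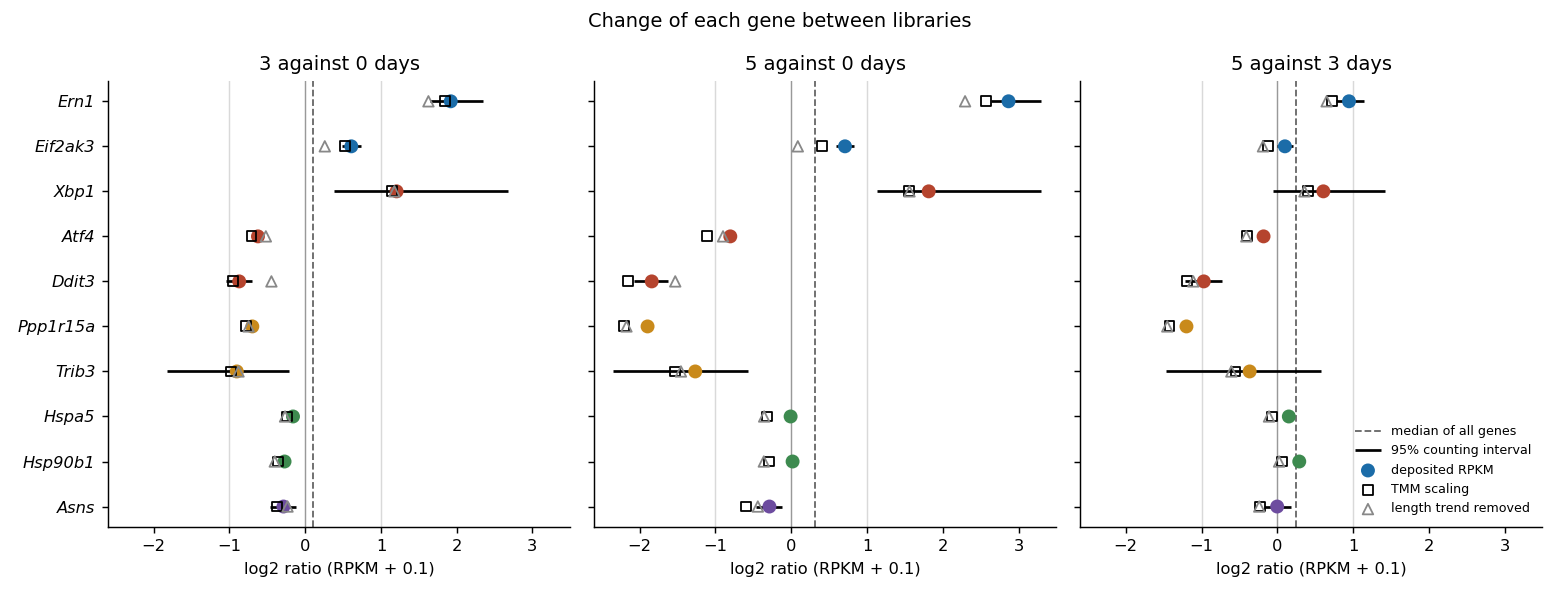
Log2 ratios of the 10 members in the 3 comparisons, as filled points (horizontal axis, RPKM + 0.1), with 95% counting intervals as bars, squares for TMM scaling, triangles for the length trend removed and a dashed line at the median of all genes. At 5 against 0 days Ern1 lies at 2.87 and Ppp1r15a at -1.90, and the chaperones lie at -0.01 and 0.02.

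Among other transcription factors of the pathway, with 7 genes measured, the median 3-day ratio was -0.09 and the median 5-day ratio 0.30, or -0.00 with TMM. Atf3, an early stress factor that ATF4 can induce and that also belongs to the immediate early genes, went from 108 to 101 and 42.0 RPKM, a 5-day ratio of -1.36 [-1.46, -1.27]. Cebpb, a myeloid C/EBP factor, went from 153 to 143 and 90.7 RPKM (-0.76 at 5 days). Cebpg, a dimer partner of ATF4, had the highest 5-day ratio of the list, 0.81, from 9.42, 11.6 and 16.6 RPKM. With length removed its ratio was 0.18, and Nupr1 (0.25) and Atf5 (0.21) were above it.

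Ppp1r15a encodes GADD34, the phosphatase subunit that removes the phosphate from eIF2α and so ends the translation block. Its levels were 206, 127 and 55.2 RPKM from 7492, 4506 and 2009 reads. It was the member with the lowest ratio at 5 days, though the intervals of the Ddit3 and Trib3 ratios overlapped its own. The 3 counting intervals of the Ppp1r15a level did not overlap. The ratios were -0.70 [-0.75, -0.64] at 3 days, -1.90 [-1.97, -1.83] at 5 days and, for the late step, -1.20 [-1.28, -1.12]. The 5-day ratio was -2.20 with TMM and -2.17 with length removed. On the log scale its late ratio was larger in size than its 3-day ratio, whereas for Atf4 it was smaller. For Ddit3 the intervals of these ratios overlapped.

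Trib3 encodes a pseudokinase that binds ATF4 and CHOP and restrains them. It was a low transcript with 43, 21 and 16 reads, or 1.35, 0.676 and 0.503 RPKM. The 0-day library was the high one, with a 3-day ratio of -0.90 [-1.83, -0.21] and a 5-day ratio of -1.27 [-2.35, -0.57], or -1.46 with length removed. With a pseudocount of 1 RPKM the 5-day ratio was -0.65, short of 2-fold. Between the LECT2 libraries the ratio was -0.36 [-1.46, 0.58], a difference that could not be detected with these counts.

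Other genes of the pathway that act on eIF2 and translation, 9 in number, had a median 3-day ratio of -0.03 and a median 5-day ratio of 0.43 (0.12 with TMM). Eif2s2, the β subunit of eIF2, went from 103 to 62.1 and 65.9 RPKM, and its 5-day ratio of -0.64 was the lowest of the list. Eif2s1, the α subunit that PERK phosphorylates, went from 22.3 to 24.3 and 35.8 RPKM (0.68, or 0.22 with length removed). Eif4ebp1, a translation repressor and ATF4 target, was at 66.6, 65.3 and 68.7 RPKM.

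Hspa5 encodes BiP, the ER chaperone that holds the sensors inactive. It was at 243, 217 and 241 RPKM from 9851, 8598 and 9790 reads. The 3-day library was the low one, and the 0-day and 5-day libraries did not differ beyond counting error. Its 3-day, 5-day and late ratios were -0.16 [-0.20, -0.12], -0.01 [-0.05, 0.03] and 0.15 [0.11, 0.19].

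Hsp90b1 encodes GRP94, the HSP90-type chaperone of the ER. It was at 396, 328 and 401 RPKM from 16949, 13693 and 17152 reads. Again the 3-day library was lowest. The corresponding ratios were -0.27 [-0.30, -0.24], 0.02 [-0.01, 0.05] and 0.29 [0.26, 0.32]. With TMM the 5-day ratios of Hspa5 and Hsp90b1 were -0.32 and -0.29, and with length removed both were -0.36, so the direction of Hsp90b1 at 5 days depended on the correction. The late ratio of Hspa5 also changed sign, to -0.07 with TMM and -0.11 with length removed. Both carry an ER stress response element in the promoter printed above.

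The ratio of Hspa5 to Hsp90b1 was 0.613, 0.662 and 0.602 at 0, 3 and 5 days. The ratio moved by 0.11 [0.06, 0.16] at 3 days and by -0.03 [-0.08, 0.02] at 5 days on the log2 scale. The 20 other ER chaperones and folding enzymes on the list had median 3-day and 5-day ratios of 0.09 and 0.46, against 0.10 and 0.31 for all genes, and the 5-day median was 0.14 with length removed. Of these, 17 had a 5-day ratio above 0, or 13 with TMM. Calr, encoding the lectin chaperone calreticulin, went from 383 to 361 and 543 RPKM (0.50). P4hb, the classical protein disulfide isomerase, went from 158 to 181 and 278 RPKM (0.82). Txndc5, another disulfide isomerase, went from 36.3 to 45.6 and 79.8 RPKM (1.13, or 0.78 with length removed). The lowest was Dnajb9, a co-chaperone of BiP, at 48.5, 45.8 and 30.7 RPKM (-0.66).

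Of the 16 genes of ER-associated degradation, which draws misfolded proteins out for the proteasome, 13 had a 5-day ratio above 0, or 9 with TMM. The median of the 16 was 0.41 (-0.08 with length removed), beside 0.31 (0.00 with length removed) over all genes. Edem1, a mannosidase-like factor, went from 23.1 to 37.0 and 44.3 RPKM (0.93, but 0.20 with length removed). Vcp, the ATPase that pulls proteins out of the membrane, went from 96.1 to 101 and 127 RPKM (0.40, but -0.08 with length removed). Herpud1, an ER-membrane protein induced by the UPR, was the lowest at 172, 148 and 145 RPKM (-0.25). Among the 15 genes of the translocon and of secretory transport the median was 0.39 (0.08 with TMM and 0.11 with length removed), with Sec24d, a coat protein of ER-to-Golgi vesicles, highest (3.42, 4.78 and 8.30 RPKM, 1.26, or 0.69 with length removed) and Sec62, a translocon partner, lowest (80.1, 52.8 and 44.5 RPKM, -0.85, or -1.42 with length removed). Serp1, a small translocon-associated protein and the most abundant of that list, was at 240, 241 and 198 RPKM. Sec61g, a translocon subunit, was at 137, 94.7 and 111 RPKM, and its 5-day ratio of -0.30 was 0.09 with length removed.

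Asns encodes asparagine synthetase, a target of ATF4. Its levels were 21.5, 17.6 and 17.6 RPKM from 642, 513 and 525 reads. Both LECT2 libraries lay below the 0-day library, and in RPKM they were within counting error of each other. The 3-day and 5-day ratios were both -0.29 [-0.46, -0.12], and the late ratio was -0.00 [-0.18, 0.18]. With TMM and with length removed the late ratio was -0.22 and -0.24, below that interval, and with length removed the 5-day ratio was -0.44. Asns thus was at 81.8% of its 0-day level while Atf4 was at 57.3%.

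The ratio of a pair of members within a library does not depend on how libraries are scaled. Atf4 was 34.6, 14.7 and 12.1 times Eif2ak3, so the ratio of the kinase to the factor moved by 1.24 [1.11, 1.37] at 3 days and 1.52 [1.39, 1.65] at 5 days on the log2 scale (0.99 at 5 days with length removed). Ddit3 was 0.129, 0.109 and 0.0628 of Atf4, a move of -0.25 [-0.43, -0.07] at 3 days and -1.04 [-1.27, -0.82] at 5 days. With length removed the 3-day move was 0.07 and the 5-day move -0.63. Asns was 0.0479, 0.0604 and 0.0684 of Atf4, a move of 0.51 [0.34, 0.69] at 5 days. Trib3 was 0.0233, 0.0213 and 0.0312 of Ddit3, a move of 0.42 [-0.53, 1.31] that the reads could not resolve. Ern1 was 5.01, 7.21 and 8.81 times Xbp1, a move of 0.81 [-0.39, 1.89], with the limits on Xbp1 given above.

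**Figure D4:**
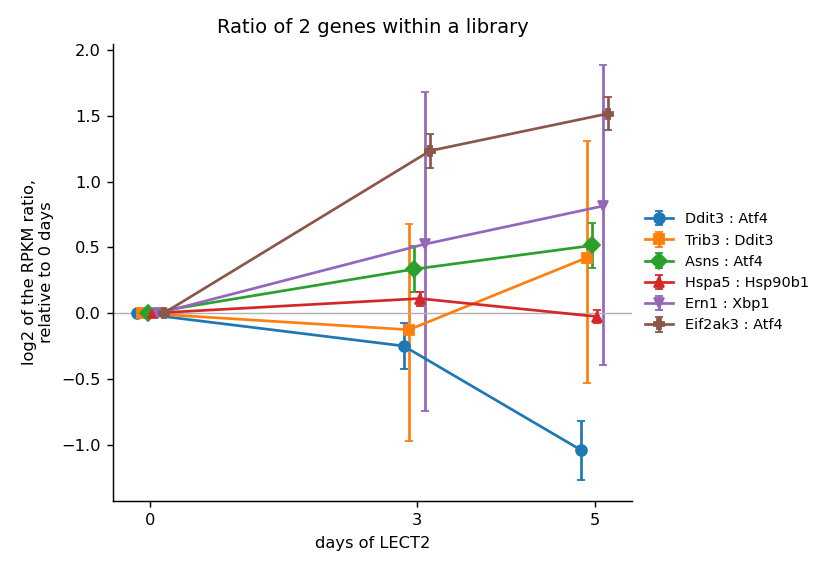
Ratio of the RPKM of 2 members within a library, as log2 relative to the 0-day library (vertical axis), against days of LECT2; bars are 95% counting intervals and points at the same day are set slightly apart. Eif2ak3 to Atf4 lies at 1.52 and Ddit3 to Atf4 at -1.04 after 5 days.

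The wider pathway was taken from lists of 110 other symbols, of which 109 were matched. At 3 against 0 days 2 of 99 tested genes were at least 2-fold higher (Chac1 and Sesn2) and 1 was lower (Tnfrsf10b), or 2.02% and 1.01%, against 4.08% and 2.41% of all genes. With TMM Chac1 left the first group and Gdf15 joined the second, while all genes gave 3.10% higher and 3.24% lower. With length removed Sesn2 left the first group, while all genes gave 2.59% and 1.81%. At 5 against 0 days 6 of 99 were higher (Atf6, Eif2ak4, Aldh18a1, Iars, Txndc5 and Sec24d) and 5 lower (Atf3, Slc7a11, Gdf15, Bbc3 and Tnfrsf10b), or 6.06% and 5.05%, against 15.5% and 5.91% of all genes. With TMM 0 were higher and 7 lower, the 5 together with Cebpb and Sec62, while all genes gave 7.13% higher and 10.2% lower. At 5 against 3 days 0 of 100 were higher and 4 were lower (Atf3, Chac1, Slc7a11 and Gdf15), against 1.95% and 3.45% of all genes. Chac1, Slc7a11 and Gdf15 passed the filter there only through the 3-day library, with 1.17, 1.56 and 1.58 RPKM against 0.407, 0.433 and 0.476 RPKM at 5 days, so their direction was tied to the filter. The same holds for Chac1 at 3 against 0 days, and for Slc7a11 and Gdf15 at 5 against 0 days through their 0-day level. Over the 98 genes averaging 1 RPKM or more, the median 3-day, 5-day and late ratios were 0.09, 0.42 and 0.33, beside 0.10, 0.31 and 0.25 over all genes.

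The ATF4 and CHOP targets were the pathway list with the widest range of 5-day ratios. Of its 25 genes, 16 averaged 1 RPKM or more, with median 3-day and 5-day ratios of 0.00 and -0.09, and at 5 days 8 ratios lay above 0 and 8 below. The 3-day median was -0.25 with length removed. The 5-day median was -0.39 with TMM and -0.19 with length removed, but 0.40 over all 25 genes with no minimum level, so its direction depended on the filter. The genes added there averaged under 1 RPKM, several with only a few reads in a library. That last median thus rests partly on ratios of very low counts. Sesn2, which restrains mTORC1 when leucine is short, had 117, 252 and 176 reads and a 3-day ratio of 1.12 [0.82, 1.47]. With length removed that ratio was 0.9995, just short of 2-fold. Chac1, a glutathione-degrading enzyme, had 13, 28 and 10 reads, and the interval of its 3-day ratio ran from 0.15 to 2.21. Gdf15, a secreted stress cytokine, had 52, 26 and 8 reads, and its 5-day ratio was -2.47 [-3.99, -1.62]. Tnfrsf10b, the death receptor DR5 that CHOP can induce, went from 9.61 to 4.63 and 3.85 RPKM, with 3-day and 5-day ratios of -1.04 and -1.30. The pro-apoptotic Bbc3 went from 7.79 to 4.94 and 3.72 RPKM (-1.05). Slc7a11, a cystine carrier, had a 5-day ratio of -1.32, or -2.23 with length removed.

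Other targets had ratios above 0. Aldh18a1, an enzyme of proline synthesis, went from 6.22 to 7.32 and 13.0 RPKM (1.05, or 0.53 with length removed). The amino acid carriers Slc1a5 (99.6, 108 and 132 RPKM, 0.40) and Slc38a2 (46.0, 62.2 and 72.9 RPKM, 0.66) were the most abundant of the list, with 5-day ratios of 0.02 and 0.03 once length was removed. Of the tRNA synthetases regulated by ATF4, all 10 averaging 1 RPKM or more had 5-day ratios above 0, also with TMM. The median of the 10 was 0.60 (0.29 with TMM and 0.24 with length removed), beside 0.31 (0.01 with TMM) over all genes. Iars had 685, 909 and 1576 reads (1.19, or 0.58 with length removed), the highest, and Sars lay at 0.32. With length removed Sars (-0.22), Eprs (-0.23) and Lars (-0.03) lay below 0. Nars and Gars, the most abundant, lay at 0.47 and 0.49. Chac1, Sesn2, Slc7a11, Gdf15, Bbc3, Eif2ak4, Nupr1, Atf5, Eprs and Lars were singled out after their values were seen.

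**Figure D5:**
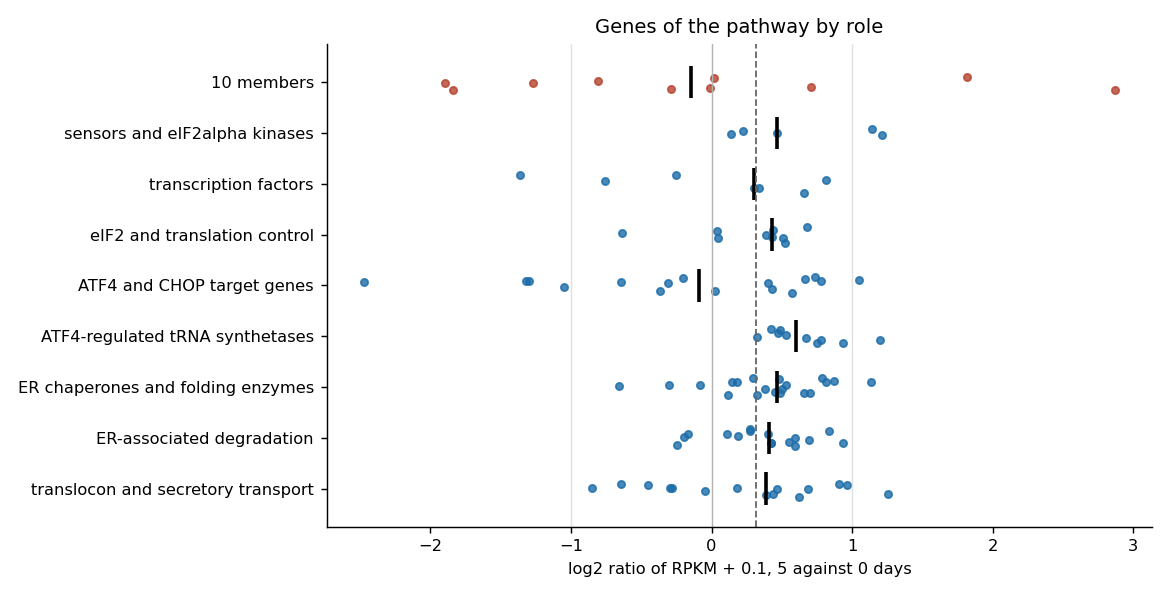
Log2 ratios at 5 against 0 days for each gene of the pathway lists averaging 1 RPKM or more and for all 10 members (points, set apart vertically for legibility; horizontal axis, RPKM + 0.1), with list medians as bars and a dashed line at the median of all genes. The members run from -1.90 to 2.87 and the ATF4 and CHOP targets from -2.47 to 1.05, and the tRNA synthetases lie above 0.

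Other gene groups moved in the same libraries, and their part in the member values was not tested. Of the 15 immediate early genes, which respond to signals within minutes, 14 were at least 2-fold lower at 5 days, against 5.91% of all genes. Their median 3-day and 5-day ratios were -0.32 and -1.74, and Zfp36 was the most abundant (1228, 1055 and 395 RPKM). All 11 late neutrophil markers that passed the filter were at least 2-fold lower at 5 days, against the same 5.91%. The summed level of the 12 listed went from 150033 to 115996 and 41373 RPKM, led by S100a9 at 61729, 44195 and 14032 RPKM. Macrophage and monocyte markers, of which Ly6c2 was the most abundant, summed to 1444, 1660 and 1982 RPKM. At 5 days 5 of 11 were at least 2-fold higher and 1 (Cd14) lower, against 15.5% and 5.91% of all genes, and with TMM Csf1r (1.37), Ccr2 (1.34) and Siglec1 (1.66) were still past that line while Mpeg1 and Cd68 (both 0.97) were not. Promyelocyte markers, led by Elane, summed to 2335, 2179 and 3703 RPKM, B cell markers, led by Cd79a, to 2444, 1948 and 1771 RPKM, and osteolineage markers, led by Spp1, to 71.3, 68.1 and 26.3 RPKM. Erythroid markers summed to 4472, 3636 and 1629 RPKM, a sum made mostly of the globins Hba-a1 and Hbb-b1. Of the 9 erythroid genes 4 had 5-day ratios above 0, or 1 with TMM, and the list's median was -0.03, or -0.34 with TMM and -0.43 with length removed. The plasma cell list, which itself holds Xbp1, summed to 292, 304 and 327 RPKM, but its most abundant gene Pou2af1 had 107, 140 and 163 RPKM while Mzb1 had 74.8, 45.2 and 42.0 RPKM. Its median 5-day ratio was 0.19, or -0.11 with TMM. No marker was at 0 reads in any library, so each list had reads on all of its matched genes at each time. The cytosolic heat shock genes, which answer unfolded protein outside the ER, had median 3-day and 5-day ratios of -0.16 and 0.19, the latter -0.12 with TMM, and Hspa8 was the most abundant. The marker genes named other than the most abundant of each list were chosen after their values were seen.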

How the data were processed

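Poly-A RNA of BM cells was sequenced in 3 libraries, 1 for each of 0, 3 and 5 days of LECT2, from an Illumina kit that does not mark strand, on a HiSeq 2000. The authors quantitated genes with Cufflinks 1.0.3, and the submitters' processing notes name the mm8 build; the aligner is not given in the sources used here. The deposited tables hold whole read counts for each gene row, with no molecular identifiers. The RPKM values deposited by the authors equal the count scaled to row length and to the total of counted reads in all but 18 rows at 0 days and 14 at 3 days (over 0.1 percent apart). Rows without reads, listed at 0.01 RPKM, were set to 0. The authors' own log ratios, P values and FDR columns hold their comparisons and were not used, and 0 columns of per-sample values were left out.

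Ratios were taken from the deposited RPKM, and a recomputation from the counts served as a check. A gene entered a comparison where 1 library reached 1 RPKM, log2 ratios took a pseudocount of 0.1 RPKM, and 2-fold marked a gene. Exact 95% (Clopper-Pearson) intervals of count ratios, or of shares, cover counting error only, and a count of 0 allows up to 3 reads. Changes of pair ratios have exact conditional 95% intervals of the odds ratio of the counts, which also cover counting error only. No p-value was computed, because the design holds 1 library for each time point. TMM factors (edgeR 4.0.16), DESeq2 1.42.0 size factors, both in R 4.3.3, a total without the 100 most abundant genes, and a lowess fit on row length (span 0.3) served as alternatives. Python 3.11.15, pandas 2.3.3, scipy 1.17.1 and statsmodels 0.14.6 were used. The steps were tested on simulated data for 5 against 0 days with 17250 genes, of which 11270 passed the filter: all of the changed genes were found (100% of 200), and 0.470% of the unchanged genes that passed were called. The changed genes averaged 5 RPKM or more and were given changes beyond the 2-fold line, so near-full recovery was set by the design. Xbp1 and Trib3 lie below that level. The simulation held counting noise only, with no length trend and no spread between animals. Its shares are therefore a check of the steps and not error rates for the real libraries.

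The members and lists were chosen with earlier results of these data known. Named genes were the members, the 2 most abundant genes of each pathway list and its highest and lowest at 5 against 0 days with a mean of at least 5 RPKM, and the most abundant gene of each other list.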

Additional observations from a re-analysis of the deposited data

How the results depend on the processing

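With 1 library for each time point no library could be left out. No paired analysis was possible because each time point has 1 library. A pseudocount of 1 RPKM moved 3 of the 30 member ratios beyond their counting intervals, all downward, a pseudocount of 0.01 RPKM moved 0, and neither changed a sign. TMM and median-of-ratios scaling each moved 19 of the 30 member ratios beyond their counting intervals, all downward, and removing the length trend moved 20. Hsp90b1 at 5 against 0 days, and Eif2ak3 and Hspa5 at 5 against 3 days, changed sign under these. The cause was not tested. At 3 against 0 days, members at least 2-fold higher went from 1 to 2 with no minimum level (Xbp1 entering) or with a 1.5-fold line, and members lower went from 0 to 4 with the 1.5-fold line. At 5 against 0 days the member median of -0.15 was -0.46 with TMM, -0.45 with median-of-ratios, -0.35 without the 100 most abundant genes and -0.40 with length removed. Members higher there went from 2 to 1 with a pseudocount of 1 RPKM or a minimum of 5 RPKM (Xbp1 leaving), and to 3 with the 1.5-fold line. Members lower there went from 3 to 4 with TMM, median-of-ratios, the top-100 total (Atf4 entering) or the 1.5-fold line, and to 2 with that pseudocount or minimum (Trib3 leaving). At 5 against 3 days the median of 0.05 was -0.17 with TMM and with median-of-ratios, and -0.21 with length removed, members higher went from 0 to 2 with the 1.5-fold line, and members lower went from 1 to 2 under TMM, median-of-ratios, the top-100 total, length removal and the 1.5-fold line. Of all genes, 4.91% with TMM, 4.87% with median-of-ratios and 4.93% with length removed were lower there, against 3.45% before correction. No share of all genes is given for the 1.5-fold line, the other minimum levels, the other pseudocounts or the top-100 total. Whether the member counts under those settings are unusual cannot be read from them. Of the 24 medians of the pathway lists, TMM changed the sign of 4 and length removal of 9. Xbp1 and Trib3, with at most 44 reads in a library, had the widest intervals.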
